A study of Mus musculus with 48 samples.

Results

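Lrg1 encodes leucine-rich alpha-2-glycoprotein 1, a secreted glycoprotein, and it is 1 of the 21558 genes in the deposited RPKM table of this mouse hypothalamus study. It was selected on its measured RPKM values, because its level was raised in unloaded mice of the late period, so its late unloading differences are given below as a description with no test. The table holds 48 RNA libraries, each a pool of hypothalamus from 3 male C57BL/6 mice, in 8 series of 6. In the late period (labelled three-month-old) there were 4 series: hind limb unloading with noise of 85 dBA and low air pressure, free moving with the same noise and pressure, hind limb unloading in quiet (10 dBA, normal pressure) and free moving in quiet. In the early period (labelled two-month-old) there were 2 hind limb unloading series and 2 free-moving series, all in quiet; series of the same label are called a and b. Hind limb unloading keeps the hind feet of a mouse off the ground and is used as a ground model of weightlessness. Within a series the libraries carry the title numbers 1, 5, 9, 13, 17 and 21, which have no unit in the labels. Noise and low pressure were applied together, each late condition is a single series, and period, age and series cannot be told apart. The labels do not say that pools of a series were independent cohorts, so each p-value measures only the spread between pools. Hypothalamic genes were present in every library, with Avp between 611 and 7580 RPKM and Hcrt between 140 and 440 RPKM. Their level differed between series. The sum of 12 hypothalamic genes averaged 2065 ± 441 and 3032 ± 632 RPKM (SD, n = 6) in late free-moving and late unloaded mice in quiet. In the other series, the late noise series among them, its mean lay between 5525 and 7383 RPKM. The part of this in the Lrg1 differences was not tested. The early unloaded library of series a at number 9 stood apart, with 12505 RPKM in anterior pituitary genes against at most 185 RPKM in the other libraries, and the late quiet libraries at number 17, with 286 RPKM (unloaded) and 397 RPKM (free-moving) in choroid plexus genes, against 103 RPKM in late unloaded mice in quiet at number 13 and at most 43.4 RPKM elsewhere.

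LRG1 is known as an acute-phase protein: the liver secretes it, cytokines of the IL-6 family induce it through STAT3, and neutrophils carry it in their granules. In mouse brain and retina its RNA is found mainly in endothelial cells of veins. There the protein binds endoglin, an accessory receptor for TGF-beta, and in mouse models of eye disease it shifts TGF-beta signalling in endothelium towards SMAD proteins that favour vessel growth. The genes named below follow these roles: cytokines and receptors, STAT3 and its targets, other acute-phase proteins, TGF-beta receptors and SMADs, endothelium, and neutrophils or blood.

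Lrg1 (ENSMUSG00000037095.8) lies on the minus strand of chromosome 17 at chr17:56119678-56122001 of GRCm38 (GENCODE). Its single annotated transcript has 2 exons of 141 and 1267 bases, with 26 coding bases in the first exon and 1000 in the second. The promoter is shown with that of Lcn2, an acute-phase gene whose level varied most nearly with that of Lrg1 within series (below); both are windows of 300 bases from RefSeq on build GRCm38.p6, from 250 bases before RefSeq's start to 50 after it (for Lrg1 that start lies inside the GENCODE transcript given above), 5′ to 3′ on the gene's strand, which is minus for both. Capitals mark CAGGAAG on either strand (CTTCCTG on the other), the core bound by many ETS factors, TATAAA, and TTGCNNAA, the core bound by C/EBP factors.
Lrg1 (chr17:56121897-56122196): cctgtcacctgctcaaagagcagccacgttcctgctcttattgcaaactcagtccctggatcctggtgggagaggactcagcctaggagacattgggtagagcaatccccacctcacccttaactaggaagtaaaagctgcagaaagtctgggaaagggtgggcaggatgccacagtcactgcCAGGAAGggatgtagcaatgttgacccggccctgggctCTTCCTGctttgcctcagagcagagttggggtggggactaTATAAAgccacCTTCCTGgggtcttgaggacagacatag
Lcn2 (chr2:32387690-32387989): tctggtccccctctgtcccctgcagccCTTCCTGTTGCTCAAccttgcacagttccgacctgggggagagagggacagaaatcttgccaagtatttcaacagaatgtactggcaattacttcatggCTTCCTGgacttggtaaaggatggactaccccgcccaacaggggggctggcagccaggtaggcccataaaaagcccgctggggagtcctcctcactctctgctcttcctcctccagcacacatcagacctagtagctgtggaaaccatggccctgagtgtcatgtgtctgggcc
The Lrg1 window held CAGGAAG at 3 places, and the Lcn2 window held it at 2. Of the 32851 promoter windows in the table, 13.3% held it at least once, 1.28% at least 2 times and 0.128% at least 3 times, counting both strands. TATAAA stood once in the Lrg1 window, as in 13.6% of windows with at least one. TTGCNNAA stood once in the Lcn2 window, directly after a CTTCCTG with no shared base, and was not found in the Lrg1 window (10.8% of windows held it). TTCNNNGAA, the core bound by STAT factors, was in neither window (8.30% of windows held it). The motifs were chosen after the sequences were read, and a match is a description of these letters and not a binding site.

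Lrg1 was a lowly expressed gene, with a mean of 2.44 RPKM over the 48 libraries. In late unloaded mice under noise it stood at 12.4, 2.77, 3.70, 5.96, 6.48 and 7.85 RPKM at title numbers 1, 5, 9, 13, 17 and 21. In late free-moving mice under noise it stood at 2.00, 1.32, 0.912, 1.52, 1.92 and 0.587 RPKM at the same numbers. Every unloaded library was higher than every free-moving one. In late unloaded mice in quiet it stood at 3.40, 3.94, 2.00, 1.90, 2.10 and 4.01 RPKM. In late free-moving mice in quiet it stood at 0.652, 0.831, 0.678, 0.481, 1.24 and 0.838 RPKM. Here too the 6 unloaded libraries were all higher than the 6 free-moving ones.

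In the early period the groups overlapped. Early unloaded series b had 2.62, 2.52, 2.00, 2.44, 3.06 and 1.07 RPKM. Early free-moving series b had 2.02, 1.07, 3.20, 2.18, 1.95 and 1.84 RPKM, and the highest of these 12 libraries, at number 9, was a free-moving one. Early unloaded series a had 3.85, 1.99, 1.04, 1.41, 2.77 and 2.70 RPKM. Early free-moving series a had 2.53, 1.13, 1.20, 1.07, 1.04 and 0.970 RPKM, where number 1 stood apart from the other 5 libraries.

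**Figure D1:**
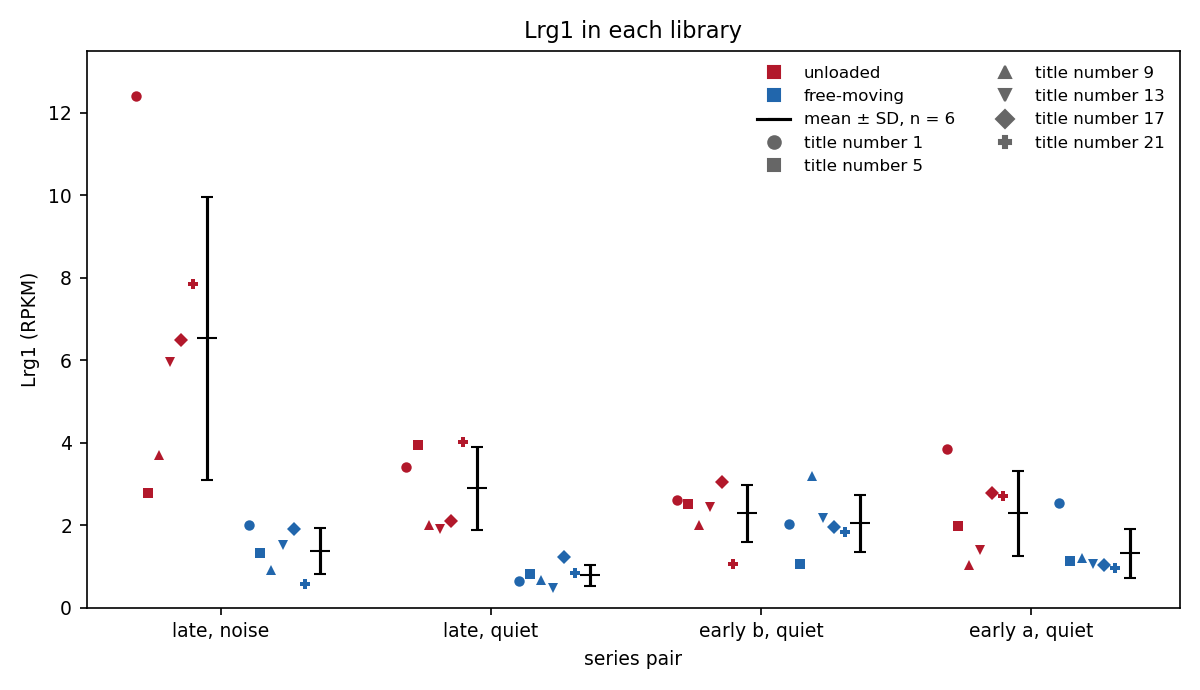
Lrg1 in RPKM (y axis) in each of the 48 libraries, by series pair (x axis), unloaded left of free-moving; marker shapes give the title number and black bars the mean ± SD of 6 libraries. Both late pairs are separated without overlap, with means of 6.53 and 1.38 RPKM under noise and 2.89 and 0.787 RPKM in quiet, while the early pairs overlap.

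By series mean (± SD, n = 6), late unloaded mice under noise were highest at 6.53 ± 3.43 RPKM, and late unloaded mice in quiet followed at 2.89 ± 1.00. Then came early unloaded series a at 2.29 ± 1.03, early unloaded series b at 2.29 ± 0.685 and early free-moving series b at 2.04 ± 0.687. Late free-moving mice under noise at 1.38 ± 0.555 and early free-moving series a at 1.32 ± 0.598 stood next, and late free-moving mice in quiet were lowest at 0.787 ± 0.259. The libraries of each series overlapped in range those of the next series in this order. Within title numbers the ends of the order were steady: late unloaded mice under noise were highest at 5 of 6 numbers, the exception being number 5, and late free-moving mice in quiet were lowest at 4 of 6.

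Whole-read steps in the low RPKM values gave an estimated depth of 28.4 to 55.2 M reads a library (median 38.1 M), at which Lrg1 had 24 to 688 reads. The highest library, late unloaded under noise at number 1, then has a 95% Poisson interval of 11.5 to 13.4 RPKM, and the lowest, late free-moving in quiet at number 13, one of 0.309 to 0.717 RPKM. Intervals of this kind cover counting error only.

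The late unloading differences, on which Lrg1 was chosen, were as follows. Under noise, unloaded mice stood above free-moving mice by 1.82 ± 0.23 (SE) on the log2(RPKM + 0.5) scale, a 3.54-fold difference, and the plain RPKM ratio at the 6 title numbers ranged from 2.09 to 13.4 with a median of 4.00. In quiet, unloaded mice stood above free-moving mice by 1.37 ± 0.23, a 2.58-fold difference, with ratios from 1.69 to 5.22 and a median of 4.35. The pseudocount of 0.5 RPKM makes the fitted folds smaller than the ratios. Without the library of highest Lrg1, a fit added after seeing the data, the difference under noise was 1.69, and without number 17 the difference in quiet was 1.53. Late free-moving mice in quiet had the lowest mean of the 8 series. They averaged 0.787 RPKM, beside 1.68 ± 0.720 RPKM (SD, n = 12) in early free-moving mice. Late unloaded mice in quiet averaged 2.89 RPKM, beside 2.29 ± 0.832 RPKM (SD, n = 12) in early unloaded mice. The ranges overlapped for free-moving and for unloaded mice. The part of either level in the difference in quiet was not tested.

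**Figure D2:**
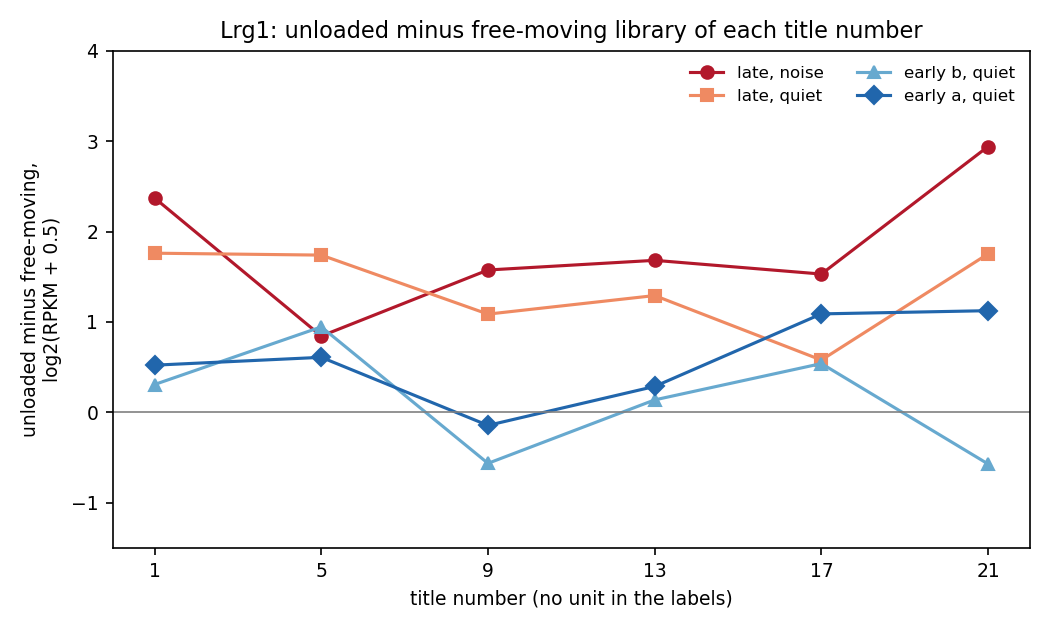
Unloaded minus free-moving library on the log2(RPKM + 0.5) scale (y axis) at each title number (x axis) for the 4 series pairs; each point is 1 library minus 1 library. The late pairs lie above 0 at all 6 numbers, and early pair a and early pair b lie above 0 at 5 and 4 of them.

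These 2 late comparisons differ in how many other genes passed the test, which was limma across 13685 genes with Benjamini-Hochberg adjustment and a threshold of 0.05. Under noise 0.0146% of the genes were called, and 855 genes had an unadjusted p below 0.05; of the list genes other than Lrg1, 1 was called, Agrp, the feeding neuropeptide of the arcuate nucleus, 1.66 higher on the log2 scale in unloaded mice under noise (adjusted p = 0.036). That call of Agrp was lost when any number other than 1 was left out, without the filter and without the replicate block. In quiet 12.8% were called, 9.38% higher and 3.38% lower in unloaded mice; the 1745 genes called became 858, 619, 816 and 1065 without number 5, 13, 17 and 21. The split in quiet depends on the scaling: 1283 genes were higher and 462 lower as deposited, against 1125 higher and 1724 lower after scaling to the nuclear genes and 1943 higher and 1935 lower after quantile normalization.

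Early unloading was tested for Lrg1, because the gene was chosen for its level in late unloaded mice. That choice was made with earlier results of these data known, and the early libraries cannot be shown to have had no part in it. The p-values for Lrg1 in early mice are therefore not wholly free of that choice. Lrg1 averaged 2.29 ± 0.832 RPKM in early unloaded mice and 1.68 ± 0.720 RPKM in early free-moving mice (SD, n = 12 each). The fitted difference was 0.36 ± 0.17 (SE) on the log2 scale, higher at 5 of 6 title numbers, with an unadjusted p of 0.038 and an adjusted p of 0.066 in limma. It did not pass the test, in a comparison that called 52.8% of all genes, where 50.9% of all genes were called as higher. That background rests on single title numbers: the 7227 genes called became 21 without number 9 and 4101 without number 13, and without number 17 limma called 0, with 5605 below an unadjusted p of 0.05. The median of all genes was 0.23 as deposited and 0.02 after quantile normalization, and the calls split into 6970 higher and 257 lower as deposited but 1565 higher and 1254 lower after quantile normalization. An exact two-sided permutation test of Lrg1 alone within title numbers (46656 arrangements) gave p = 0.071, or 0.11 adjusted over the 3 comparisons tested in this way. The labels do not pair the series, so all 4 pairs are given. Against free-moving series a, unloaded series a gave 0.58 (unadjusted p = 0.017, adjusted p = 0.044, 5748 genes called) and unloaded series b gave 0.62 (unadjusted p = 0.012, adjusted p = 0.22, 0 genes called in limma and 2066 below an unadjusted p of 0.05). Against free-moving series b, unloaded series a gave 0.09 (adjusted p = 0.74, 8244 genes called) and unloaded series b gave 0.13 (adjusted p = 0.70, 3 genes called). The adjusted p thus moved with how many other genes passed, and the differences between pairs were not tested. The share of RPKM in the 13 mitochondrially encoded genes also differed between these series, at 20.5% and 34.3% in unloaded series a and b and 41.8% and 44.5% in free-moving series a and b. With that share as a covariate the Lrg1 difference was 0.46, larger than without it, with an adjusted p of 0.90 in limma. That fit called 1 gene in early mice, with 719 below an unadjusted p of 0.05. Without number 9, which holds the library rich in pituitary genes, the Lrg1 difference was 0.50 with an adjusted p of 0.068.

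Noise with low pressure went with a higher Lrg1 level in late mice. Averaged over activity, Lrg1 stood at 3.95 ± 3.57 RPKM in the 12 noise libraries and 1.84 ± 1.30 RPKM in the 12 quiet libraries (SD), a difference of 0.74 ± 0.17 (SE) on the log2 scale that was called in limma (adjusted p = 0.00019). It was higher at 6 of 6 title numbers. The exact two-sided permutation test within title number and activity (4096 arrangements) gave p = 0.0054, or 0.016 adjusted over 3. Among unloaded mice the difference between noise and quiet was 0.96, and among free-moving mice 0.51, each higher at 5 of 6 numbers. This comparison called 68.6% of all genes, 50.5% as lower and 18.1% as higher under noise, or 6906 and 2481 genes, which became 5072 and 4458 after quantile normalization and 1445 and 4334 once the mitochondrial share was a covariate; the median of all genes was −0.22 as deposited and −0.03 after quantile normalization. The comparison weighs unloaded and free-moving series equally, so its weights are orthogonal to those of the unloading differences on which the gene was chosen. The same late libraries enter both, and the SD of Lrg1 on the log2 scale differed between series. It was 0.706 and 0.465 in late unloaded and free-moving mice under noise, and 0.432 and 0.278 in quiet. The p-values of this comparison are therefore not wholly free of that choice. The mitochondrial share was 33.6% and 28.3% in the late unloaded and free-moving noise series, against 14.0% and 11.5% in the late unloaded and free-moving quiet series, and with it as a covariate the difference was 0.59 (adjusted p = 0.025).

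Lrg1 did not pass the test between periods. Late mice in quiet had 1.84 ± 1.30 RPKM (n = 12) and early mice 1.99 ± 0.822 RPKM (n = 24), a difference of −0.21 ± 0.14 (SE) with an adjusted p of 0.17 in limma, in a comparison that called 79.3% of all genes. The exact permutation test (531441 arrangements) gave p = 0.26. After quantile normalization it was −0.52 and passed (adjusted p = 0.0031). Series b against series a in the early period, a difference that the labels do not explain, came to 0.26 ± 0.17 (adjusted p = 0.25; 10.4% of genes called, or 1422, which became 5675, 60, 357, 2, 860 and 292 without number 1, 5, 9, 13, 17 and 21). It was 0.04 between the unloaded series and 0.49 between the free-moving series.

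Title number 1 had the highest Lrg1 of the series in 4 of 8 series, 0.42 above the series mean on the log2 scale on average, and number 21 the lowest in 3. Over the 6 numbers the limma F test gave an unadjusted p of 0.028 and an adjusted p of 0.22, with 0.877% of genes called. A sine and cosine of period 24, which treats the numbers as hours and is an assumption, gave an amplitude of 0.20 and an adjusted p of 0.47 (1.76% of genes called). No change with title number was therefore called for Lrg1.

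Of the inducers of Lrg1, 2 of 8 tested ligand and receptor genes of the IL-6 family were called with late unloading. In quiet 1 was higher and 1 lower, 12.5% in each direction beside 9.38% and 3.38% of all genes, and under noise, where 0.0146% of all genes were called, none was (none with an unadjusted p below 0.05 in limma either). Il11ra1, the IL-11 receptor, was higher by 0.42 (adjusted p = 0.025), and Il6st, the gp130 chain that the family's receptors share, fell by 0.41 on the log2 scale (adjusted p = 0.0093), both in unloaded mice in quiet. The Il11ra1 call was lost without any number but 1, and the Il6st call stood throughout. Il6 itself and 4 other family genes were below the filter of 0.5 RPKM. Of 16 genes of the STAT3 pathway, 1 was higher and 1 lower in quiet (6.25% each): the kinase gene Tyk2 by 0.38 (adjusted p = 0.023) and Jak1 by −0.51 (adjusted p = 0.0096). The Tyk2 call was lost without number 13, 17 or 21 and under scaling to the nuclear genes, and the Jak1 call without number 13. Under noise none of the 16 was called, with 1 below an unadjusted p of 0.05. Socs3, the feedback gene that STAT3 induces, gave 0.22 in quiet (adjusted p = 0.42), −0.05 under noise (adjusted p = 0.93) and 0.34 in early unloaded mice (adjusted p = 0.021). Stat3 itself gave −0.24 in quiet, −0.11 under noise and 0.35 in early unloaded mice (adjusted p = 0.27, 0.82 and 0.0067). Both early calls were lost after quantile normalization, with the mitochondrial share as a covariate and without number 9 or 17, and that of Socs3 also without number 1 or 13, under scaling to the nuclear genes and with only the early series fitted.

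Of the other acute-phase genes, 9 of 26 passed the filter. With late unloading 1 was called, as higher in quiet, or 11.1% beside 9.38% of all genes. Cfb, complement factor B, was 0.48 higher in unloaded mice in quiet (adjusted p = 0.040), a call lost after quantile normalization, without the filter and when number 5, 13, 17 or 21 was left out. Under noise, where 0.0146% of all genes were called, none of the 9 was, with 1 below an unadjusted p of 0.05. Lcn2, which encodes lipocalin 2, an iron-siderophore binding protein, stood at 2.68, 0.704, 1.10, 4.41, 1.74 and 1.38 RPKM in late unloaded mice under noise. It stood at 0.255, 1.69, 0.126, 0.172, 0.564 and 0.387 RPKM in late free-moving mice under noise. The ranges overlap through a single free-moving library, at number 5, and the difference of 1.27 ± 0.38 (SE) was not called (adjusted p = 0.58). In quiet Lcn2 averaged 0.962 ± 1.08 RPKM in unloaded mice and 0.647 ± 0.578 RPKM in free-moving mice (SD, n = 6 each). In early unloaded mice 2 acute-phase genes were higher, Serpina3n by 0.49 (adjusted p = 0.0043) and Cp by 0.26 (adjusted p = 0.029), against 50.9% of all genes.

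On the TGF-beta side, none of 9 ligand genes was called with late unloading in quiet or under noise. Of all genes, 12.8% were called in quiet and 0.0146% under noise. In each comparison 1 of the 9 had an unadjusted p below 0.05 in limma. Of 12 receptor genes, 1 was higher and 2 lower in quiet, 8.33% and 16.7% beside 9.38% and 3.38% of all genes. The higher one was Eng, the endoglin gene, whose protein binds LRG1: it rose by 0.42 in unloaded mice in quiet (adjusted p = 0.0078) and gave −0.14 under noise (adjusted p = 0.79). The lower ones were Bmpr1a by −0.51 (adjusted p = 0.019) and Acvr2b by −0.52 (adjusted p = 0.012). The Bmpr1a call was lost without number 5, 13, 17 or 21 and the Acvr2b call without number 5, while the Eng call stood throughout. Acvrl1, the ALK1 receptor that endoglin assists, gave 0.26 in quiet (adjusted p = 0.081), and Tgfbr2 gave −0.17 (adjusted p = 0.47). Of 20 SMADs and target genes, 2 were higher and 1 lower in quiet, beside the same shares of all genes. Id1 and Id3, targets of BMP signalling, were higher by 0.36 (adjusted p = 0.040) and 0.34 (adjusted p = 0.024), and Smad9 gave −0.50 (adjusted p = 0.011). The Id1 call was lost whichever number was left out, and the Id3 call when number 1, 5, 13 or 17 was; both were lost under scaling to the nuclear genes and without the replicate block, and Id3 also after quantile normalization. The Smad9 call was lost without number 17.

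Endothelial markers were called as higher with late unloading in quiet, while none was called under noise, where 0.0146% of all genes were. Of the 22 tested, 7 were higher and none lower in quiet, a share of 31.8% beside 9.38% of all genes; their median difference was 0.18, beside 0.02 over all genes. The 7 were Sox17, an arterial transcription factor, by 0.80 (adjusted p = 0.00040), Ly6c1 by 0.69 (adjusted p = 4.4e-05), Ly6a by 0.58 (adjusted p = 0.0021), Egfl7 by 0.48 (adjusted p = 0.0020), Esam by 0.48 (adjusted p = 0.0022), the tight junction gene Cldn5 by 0.46 (adjusted p = 0.011) and Sox18 by 0.40 (adjusted p = 0.034). The calls of Ly6c1, Ly6a, Egfl7, Esam and Sox17 stood under each of the settings tried and with each number left out, while Cldn5 lost its call without the replicate block and Sox18 under scaling to the nuclear genes, without the replicate block and without any number but 17. Sox17 stood at 3.28, 3.32, 2.73, 2.52, 2.81 and 2.76 RPKM in unloaded mice in quiet and at 1.13, 1.99, 1.20, 1.76, 1.31 and 1.42 RPKM in free-moving mice in quiet, with no overlap. Under noise none of the 22 was called, with 1 below an unadjusted p of 0.05, and the median was −0.17 beside −0.11 over all genes. Late free-moving mice in quiet had the lowest summed level of these markers of the 8 series, at 234 ± 14.6 RPKM (SD, n = 6). The other series averaged between 255 and 289 RPKM, with late unloaded mice in quiet at 287 ± 24.6 RPKM. The part of this low level in the differences in quiet, and in those between noise and quiet below, was not tested.

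The unloading difference itself changed between noise and quiet for part of this list. The test of noise minus quiet, added after seeing the data, called 5 of the 22 endothelial markers, all lower (22.7%), where it called 4.38% of all genes, 3.9% as lower and 0.482% as higher, or 534 and 66 genes, which became 506 and 474 after quantile normalization. Without number 13 or 17 it called 59 or 63 genes in place of 600. Sox17 gave −1.02 (adjusted p = 0.0042), Cldn5 −0.77 (adjusted p = 0.0073), Esam −0.62 (adjusted p = 0.012), Egfl7 −0.59 (adjusted p = 0.017) and Ly6c1 −0.55 (adjusted p = 0.032). Eng gave −0.56 (adjusted p = 0.027). Of these 6 only the Sox17 call stood with each number left out and under each setting. Cldn5 lost its call without number 13 and without the replicate block. Esam lost it without number 13, 17 or 21, Egfl7 without number 1, 13 or 17, Ly6c1 without any number but 13, and Eng without number 9, 13, 17 or 21. Each of these last 4 also lost it after quantile normalization and under scaling to the nuclear genes, and Ly6c1 and Eng without the replicate block. Lrg1's own differences of 1.82 under noise and 1.37 in quiet are given side by side with no test.

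Of 10 tested genes of venous and activated endothelium, 2 were higher with late unloading in quiet, beside 9.38% of all genes: the amino acid transporter gene Slc38a5 by 0.58 (adjusted p = 0.024) and the venular chemokine receptor gene Ackr1 by 0.55 (adjusted p = 0.0097). Under noise, where 0.0146% of all genes were called, none was, with 3 below an unadjusted p of 0.05; Slc38a5 gave 0.65 (adjusted p = 0.45) and Ackr1 −0.10 (adjusted p = 0.83). The Slc38a5 call was lost without number 5, 9 or 13, and the Ackr1 call without number 13. Vwf, the von Willebrand factor gene that is high in veins, gave 0.35 in quiet (adjusted p = 0.065), 0.28 under noise (adjusted p = 0.77) and 0.15 in early mice (adjusted p = 0.17). With noise averaged over activity Vwf rose by 0.35 (adjusted p = 0.0011), a call lost once the mitochondrial share was a covariate.

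The summed level of the 22 endothelial markers, in which the highest genes weigh most, is given beside that of Lrg1. It ranged from 232 to 322 RPKM in late unloaded mice under noise and from 264 to 313 RPKM in late free-moving mice under noise. In quiet it ranged from 262 to 322 RPKM in unloaded mice and from 221 to 257 RPKM in free-moving mice, without overlap. Per 1000 RPKM of this sum, the median Lrg1 level was 25.6 in late unloaded and 4.96 in late free-moving mice under noise, and 9.25 in late unloaded and 3.10 in late free-moving mice in quiet. In these bulk samples more cells of a type and more RNA per cell cannot be told apart. The part of endothelial content in the Lrg1 differences was not tested.

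**Figure D3:**
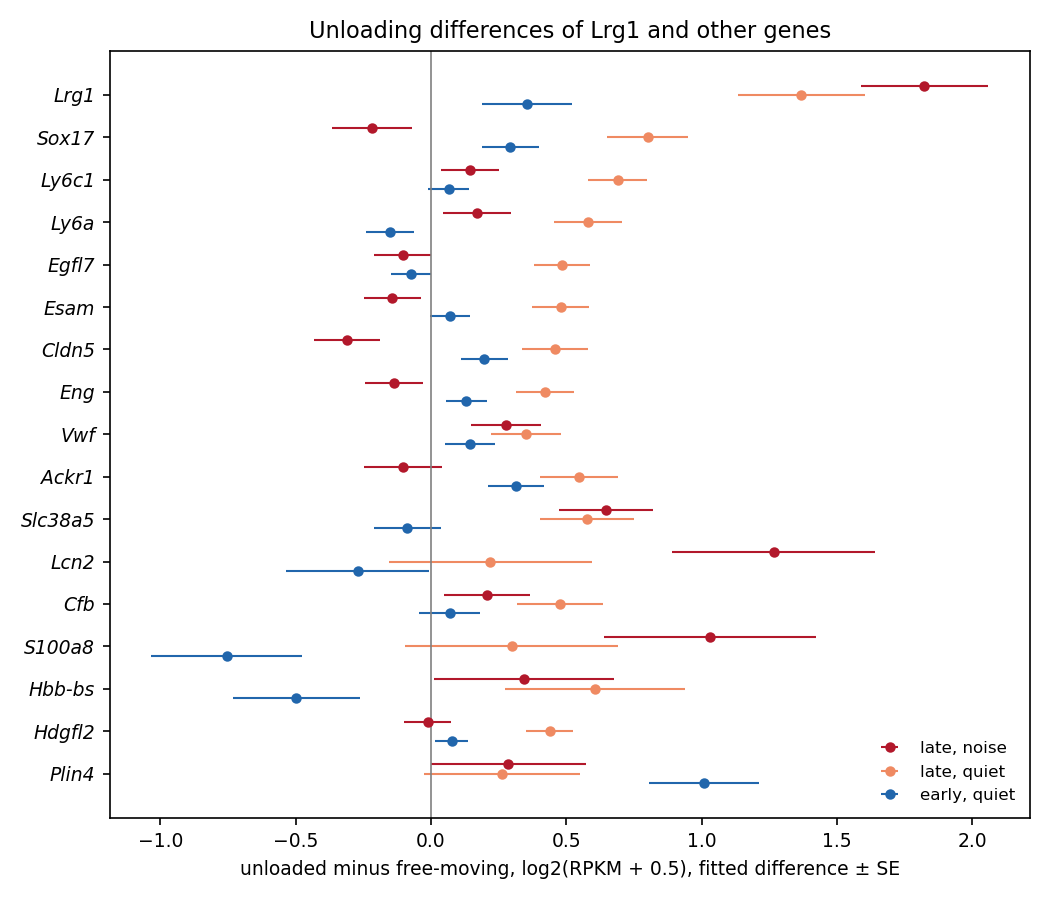
Fitted unloaded minus free-moving difference ± SE on the log2(RPKM + 0.5) scale (x axis) for Lrg1 and 16 other genes (y axis) in late mice under noise, late mice in quiet and early mice. Sox17, Egfl7, Esam, Cldn5 and Eng lie above 0 in quiet and below 0 under noise, where Lrg1 is at 1.82; Plin4 is highest in early mice, at 1.01.

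Markers of neutrophils and blood were also followed, since neutrophils carry LRG1. Of the 16 listed genes 7 passed the filter, among them S100a8 and S100a9, which encode calprotectin, and the globin genes. None of the 7 was called with late unloading, in quiet or under noise, where 12.8% and 0.0146% of all genes were called. In each comparison 1 of the 7 had an unadjusted p below 0.05 in limma. Their median difference was 0.56 in quiet and 0.24 under noise, and −0.47 in early mice, where S100a8 fell by 0.76 (adjusted p = 0.023), 1.88% of all genes being called as lower. That call was lost without number 1, 9, 17 or 21. With noise averaged over activity 6 of the 7 rose, beside 18.1% of all genes, among them S100a9 by 1.21 (adjusted p = 3.2e-05) and S100a8 by 1.03 (adjusted p = 0.0013). The sum of the 11 neutrophil genes ranged from 4.59 to 14.4 RPKM in late unloaded mice under noise and from 1.98 to 6.43 RPKM in late free-moving mice under noise. In quiet it ranged from 0.865 to 6.61 RPKM in unloaded mice and from 1.55 to 2.86 RPKM in free-moving mice. Per 1000 RPKM of this sum, Lrg1 under noise ranged from 414 to 1945 (median 589) in unloaded mice. In free-moving mice under noise it ranged from 91.3 to 764 (median 290). In quiet the ratio ranged from 596 to 2312 (median 1254) in unloaded and from 230 to 765 (median 327) in free-moving mice. The ratios overlap in both conditions. Of the 11 genes, Ly6g was at 0 in 40 of 48 libraries, Elane in 39, Mmp8 in 34, Cxcr2 in 26, Retnlg in 17, Ltf in 14, Camp in 10, Mpo in 6, Ngp in 5, S100a9 in 1 and S100a8 in 0. The part of blood cells in the Lrg1 differences was not tested.

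The globin and neutrophil sum of all 16 genes was between 1249 and 3460 RPKM in late unloaded and between 1135 and 2305 RPKM in late free-moving mice under noise. In quiet it was between 807 and 2634 RPKM in unloaded and between 629 and 1039 RPKM in free-moving mice. These ranges overlap in both conditions.

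Glucocorticoid-induced genes were followed because unloading can act as a stressor. Of 18 tested, 1 was higher and 1 lower with late unloading in quiet, 5.56% each beside 9.38% and 3.38% of all genes. They were Mt1 by 0.46 (adjusted p = 0.022) and Klf9 by −0.53 (adjusted p = 0.047). Under noise, where 0.0146% of all genes were called, none of the 18 was, with 1 below an unadjusted p of 0.05. The Mt1 call was lost without number 5, 13 or 21, and the Klf9 call without any number but 1. In early mice 11 rose and none fell, beside 50.9% of all genes: Plin4 by 1.01 (adjusted p = 0.0043), Cdkn1a by 0.81 (adjusted p = 0.0024) and Fkbp5 by 0.55 (adjusted p = 0.0047) among them. Without number 17 these 3 calls were lost. With the mitochondrial share as a covariate none of the 114 list genes called in early mice was called, in a fit that called 1 of 13685 genes.

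Of the genes next to Lrg1, 1 was called with late unloading. Within 100 kb of Lrg1, 9 of 10 annotated genes were in the table, and all 9 were tested. With late unloading in quiet, where 12.8% of all genes were called, 1 of the 9 was, Hdgfl2. It starts 42.4 kb from the Lrg1 start and was higher by 0.44 (adjusted p = 0.00085). Under noise, where 0.0146% of all genes were called, none of the 9 was. Nor was any below an unadjusted p of 0.05, and Hdgfl2 gave −0.01. In early mice 4 of the 9 were higher, beside 50.9% of all genes: Ubxn6 by 0.71 (adjusted p = 0.0043), Plin4 by 1.01, Sema6b by 0.43 (adjusted p = 0.0062) and Dpp9 by 0.45 (adjusted p = 0.0047), calls that were lost without number 17 and, other than that of Plin4, without number 9. The gene whose start is nearest to that of Lrg1, the lipid droplet gene Plin5, at 4.4 kb on the same strand, gave −0.29 under noise, 0.17 in quiet and 0.16 in early mice (adjusted p = 0.77, 0.56 and 0.28). Chaf1a, Tnfaip8l1 and Mydgf were called in none of the 3 comparisons.

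Over the 48 libraries the 10 genes most like Lrg1 by Pearson's r of log2(RPKM + 0.5), out of 13684, were Vwf (r = 0.66), Ly6a (0.63), Lcn2 (0.59), Ly6c1 (0.57), Igfbp7 (0.56), 2200002D01Rik (0.56), Actl6b (0.55), C4b (0.55), Grrp1 (0.55) and Trip10 (0.54). Of these 10, 4 were in the endothelial or venous lists, Lcn2 counted among them. The libraries share their series and their mitochondrial share, so the values describe them and carry no p. Without the 2 libraries of highest Lrg1, both late unloaded under noise (numbers 1 and 21), r was 0.55 for Vwf, 0.61 for Ly6a and 0.52 for Lcn2. Agrp had r = 0.48 and rank 51.

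Within series and title number, after those means were taken out, Lcn2 was first (r = 0.58), followed by Myl12a (0.57), Ly6a (0.55), Grrp1 (0.53), Fam129c (0.52), Proca1 (0.50), Eps8l1 (0.47), Casp6 (0.47), Tgif2 (0.46) and Magoh (0.45). Lcn2, Ly6a and Grrp1 were in both sets of 10. Over the 8 series means the most like genes were Zcwpw1 (0.93), Sertad3 (0.91), Vwf (0.90), Lamp5 (0.89) and Mrpl38 (0.88). By list, the median r over 48 libraries was 0.45 for the 7 neutrophil and blood genes, 0.31 for the 9 acute-phase genes, 0.19 for the 10 venous genes and 0.07 for the 22 endothelial markers, beside −0.10 over all genes. Within series and number the same medians were 0.36, 0.15, 0.22 and 0.08, beside −0.05.

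**Figure D4:**
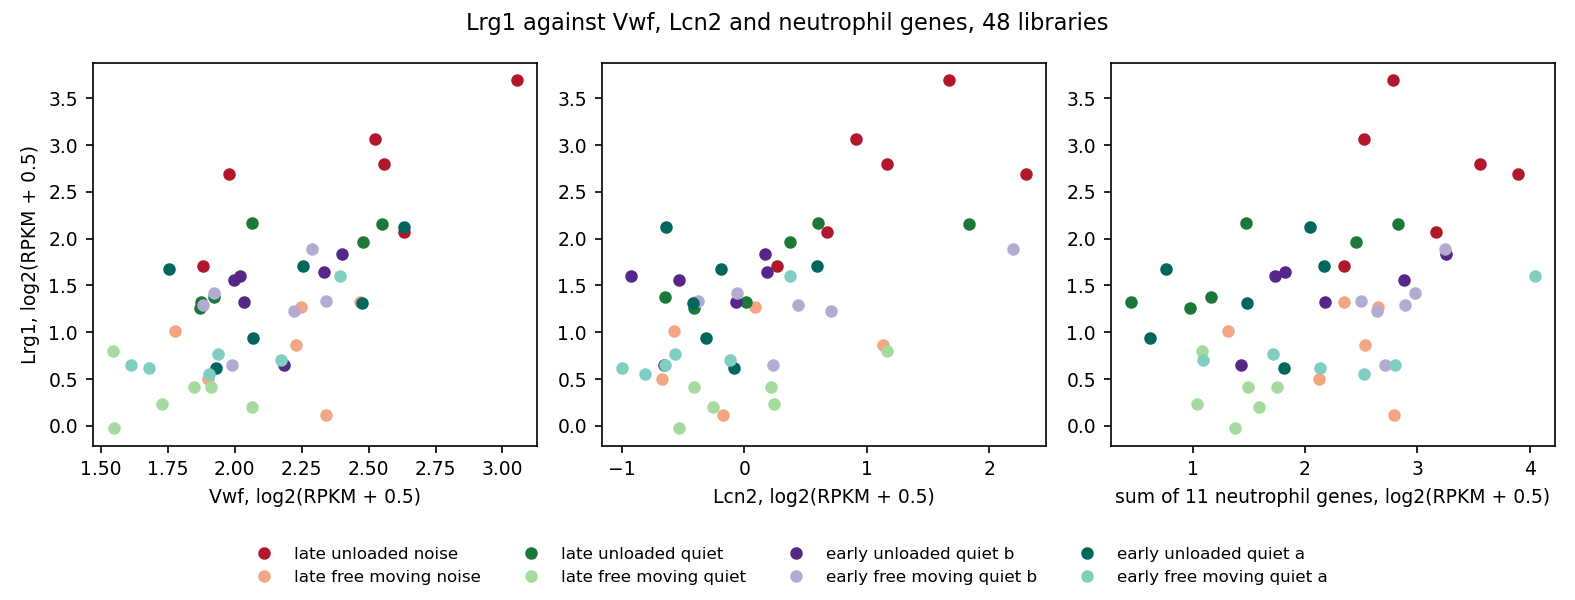
Lrg1 (y axis) against Vwf, Lcn2 and the sum of 11 neutrophil genes (x axes), all as log2(RPKM + 0.5), with 1 point for each of the 48 libraries, coloured by series. Late unloaded libraries under noise hold the 4 highest Lrg1 values, between 5.96 and 12.4 RPKM; r was 0.66 with Vwf and 0.59 with Lcn2.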

How the data were processed

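Total RNA of mouse hypothalamus, pooled from 3 mice per library (144 mice in all), was sequenced in 48 libraries. The values are RPKM (reads per kilobase of gene, scaled to the mapped reads of the library) for 21558 genes as deposited by the authors; per the submitters' processing notes CASAVA 1.8 and HISAT were used, while for the HISAT version, the build and the gene models nothing is stated in the labels or headers. The series design text gives two-month-old mice for all, against the labels of the late series. Series were taken from the labels, and 0 columns were left out.

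Genes with a mean of at least 0.5 RPKM (13685) were fitted as log2(RPKM + 0.5) in limma 3.58.1 (R 4.3.3), with terms for series and title number, an intensity trend and 35 residual degrees of freedom; two-sided p-values were adjusted by Benjamini-Hochberg over all genes tested, and "called" means an adjusted p below 0.05. Fold changes on this scale understate those of low genes. RPKM carries no depth, so depth was estimated from the steps of low values, of which 62.8% to 68.4% a library were whole reads within 0.02 reads, against 4% by chance. The fit was tested on simulated data.

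Lrg1, the 20 gene lists (276 genes, 230 tested) and the rule for named genes were chosen with earlier results of these data known. Named are Lrg1, its neighbours within 100 kb, the genes most like it, up to 4 called members of each list by p, and a few fixed genes; Sox18, the receptors Bmpr1a and Acvr2b, and the members named for the difference between noise and quiet were added after their values were seen. Libraries of the same title number deviated together only weakly (median r of deviations 0.080, against −0.017 for other pairs; 75 of 168 pairs over 0.1), and not every pair was over 0.1, so the number is a block and not a subject. No pair of libraries was identical (0 pairs). Gene positions are from GENCODE on GRCm38, and promoter sequences from RefSeq.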

Additional observations from a re-analysis of the deposited data

Results flagged for a closer look

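In series of 6 libraries, 1 library is set out here where its gap to the next exceeds Dixon's 95% critical value for the share of the series' range. Of 40 series of 5 genes looked at (Lrg1, Vwf, Lcn2, Ly6a and Agrp), 6 had such a library. Chance alone gives about 1 in 20 for normal values. The share was taken on plain RPKM, which need not be normal in low genes, so that rate may not hold here. Lrg1 in early free-moving series a stood at 2.53 RPKM at number 1, where the next library had 1.20 RPKM. The other 5 were all for Lcn2, a gene of low level. They were 1.69 RPKM in late free-moving mice under noise at number 5, 3.07 RPKM in late unloaded mice in quiet at number 5, 1.75 RPKM in late free-moving mice in quiet at number 17, 1.01 RPKM in early unloaded series a at number 17 and 4.09 RPKM in early free-moving series b at number 9. In that last library Lrg1 was also highest of its series, at 3.20 RPKM.

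For 6 genes of endothelium the late unloading difference under noise was lower than that in quiet by a test of the difference itself in limma, at an adjusted p below 0.05: Sox17 (−1.02), Cldn5 (−0.77), Esam (−0.62), Egfl7 (−0.59), Eng (−0.56) and Ly6c1 (−0.55). At each of the 6 title numbers all 6 genes were higher in unloaded than in free-moving mice in quiet. Those free-moving mice had the lowest summed level of the 22 endothelial markers of the 8 series.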

How the results depend on the processing

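The Lrg1 differences kept their sign under every setting tried. Late unloading ranged from 1.69 (without the library of highest Lrg1) to 2.11 under noise and from 1.22 to 1.73 in quiet over the other settings; with each title number left out in turn the ranges were 1.60 to 2.02 and 1.29 to 1.53. The noise difference stayed called, at 0.59 to 0.97 over the settings and 0.60 to 0.88 with numbers left out. Early unloading passed with array weights (0.46) and for unloaded series a against free-moving series a (0.58), though not for the other pairs (0.62 for unloaded b over free-moving a, 0.09 and 0.13 for unloaded a and b over free-moving b), and ranged from 0.26 to 0.50 with numbers left out. Late against early in quiet passed after quantile normalization (−0.52) and with array weights (−0.30), and ranged from −0.31 to −0.14 with numbers left out. With no replicate block the Lrg1 estimates are the same by construction, with an adjusted p of 0.094 for early unloading, and the noise call stood; the numbers do not pair samples.

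Of the list genes, 30 were called with late unloading in quiet, against 53 after quantile normalization, 50 scaled to the nuclear genes, 55 with the mitochondrial share as a covariate, 115 with array weights and 121 with only the series compared. Calls over all 13685 genes moved as well, from 1745 to 3878, 2849, 4055, 7329 and 7106 in the same order. Under noise 1 list gene was called, against 0 without the filter, 0 with no replicate block, 34 with array weights and 3 with only the series compared. Over all genes the calls were 2, against 1, 1, 1764 and 7 in the same order. In early mice 114 list genes were called, against 38 after quantile normalization, 55 scaled to the nuclear genes, 0 with the covariate and 75 with only the series compared. Over all genes the calls were 7227, against 2819, 3706, 1 and 4618 in the same order. Of the neighbours, 1 was called in quiet, against 2 without the filter, after quantile normalization, scaled to the nuclear genes, with the covariate and with array weights, and 3 with only the series compared. Under noise 0 were called, against 3 with array weights, and in early mice 4, against 0 with the covariate and 7 with array weights. One gene changed sign with the covariate (Jak1, early unloading, at −0.0398). The cause of these shifts was not tested. Counting error for Lrg1 rests on 24 to 688 reads a library and does not cover the spread between pools of a series.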

Other observations

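Among the other cell types followed, none of the 11 neuron, 10 oligodendrocyte, 14 reactive astrocyte, 7 choroid plexus, 5 anterior pituitary or 13 mitochondrially encoded genes was called with late unloading in quiet in limma (2, 0, 3, 1, 0 and 0 had an unadjusted p below 0.05). Of 10 astrocyte markers 2 fell and of 12 microglia markers 1 fell, beside 3.38% of all genes, and of 12 mural and fibroblast genes 1 rose, the smooth muscle actin gene Acta2 by 0.69 (adjusted p = 0.017), a call lost without number 1, 13 or 17. Of 12 hypothalamic genes 4 rose, beside 9.38% of all genes: Agrp by 1.31 (adjusted p = 0.0057), Npy by 0.93 (adjusted p = 0.0047), Avp by 0.82 (adjusted p = 0.022) and Crh by 0.54 (adjusted p = 0.032). The Avp call was lost without number 5, 13 or 17. Agrp and Npy are made by the same arcuate neurons. The mean sum of the 12 genes was lowest in late free-moving mice in quiet, at 2065 ± 441 RPKM (SD). It was 3032 ± 632 RPKM in late unloaded mice in quiet and between 5525 and 7383 RPKM in the other series. Agrp stood at 2.21 to 6.27 RPKM in late free-moving mice in quiet and at 5.50 RPKM or more in every other library. The part of this low level in the 4 rises was not tested. Under noise Agrp was the 1 gene called among all these lists.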
